A study of Arabidopsis thaliana with 18 samples.

Results

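Early step-up plateau transcripts are those of developing Arabidopsis thaliana seeds whose level stepped up between 8-9 and 10-11 days after flower opening and then stayed flat to 12-13 days, in each of 2 accessions. They were chosen from log2 group means of 3 arrays: a probe set entered when its 10-11 minus 8-9 days difference, the early step, was at least 1.5 and its 12-13 minus 10-11 days difference, the late step, lay between -0.5 and 0.5, in C24 and in Col-0 alike. A probe set is the group of probes that measures 1 transcript. The rule kept 70 of 19755 probe sets. Of these 70, 42 have a single gene in the platform annotation, and 28 are not listed there and are given by probe set ID. The stage differences within an accession chose these transcripts, so they are described here without a test. The differences between the accessions at a stage, which the rule does not set a limit on, are tested, although they come from the same arrays. The accession difference in the early step is made from the 2 steps that the rule used, so for these transcripts it is a description too.

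C24 and Col-0 are natural accessions, that is, inbred wild type lines from different places, with no transgene and no treatment. The groups were C24 at 8-9, 10-11 and 12-13 days after flower opening and Col-0 at the same 3 stages, with 3 ATH1 arrays in each of the 6 groups (18 arrays). Each array held RNA from 200 mg of seeds taken out of 48 pooled siliques, the seed pods of this plant, with 8 from each of 6 plants. With 6 plants per accession in each of 2 experiments, a group drew 18 times on 12 plants, so pools and stages shared plants. The spread behind each p-value is that of pools, not of independent plants. Whole seeds hold embryo, endosperm and seed coat together, and more cells of a type and more RNA per cell cannot be told apart in them.

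In an Arabidopsis seed the embryo first lays down its body plan and then enters maturation, in which it fills with storage proteins of the cruciferin kind and with oil held in oleosin-coated bodies, and later gains tolerance of drying. Over the same days the outer cells of the seed coat fill their walls with pectin-rich mucilage and then build a secondary wall, the columella. Enzymes that trim and cross-link wall polymers, wall glycoproteins, peroxidases and lipid transfer proteins are typical products of wall-building cells. Which cells of the seed made the transcripts below was not measured.

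On the log2 scale the medians of the arrays ran from 6.05 to 6.17, their 25th percentiles from 4.41 to 4.57 and their maxima from 14.09 to 14.33. Levels of different probe sets are not compared with each other. Each difference below is C24 minus Col-0 on the log2 scale, with the standard error of limma's model (n = 3 arrays per group), and its p is adjusted by Benjamini-Hochberg over all 19755 probe sets, with a threshold of 0.05. Arrays of a group correlated at 0.992 or higher over all probe sets, and no pair of arrays held identical values. The median early step over all probe sets was 0.02 in C24 and -0.01 in Col-0, and 24.0% of all probe sets rose in this step in C24 and 19.9% in Col-0 by limma.

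The early steps of the 70 transcripts ran from 1.51 to 8.89 in C24 (median 2.02) and from 1.53 to 9.38 in Col-0 (median 2.25). A step of 4 or more was reached by 10 transcripts in C24 and by 15 in Col-0, and 35 and 26 had a step under 2. The step was larger in C24 for 22 transcripts and larger in Col-0 for 48. In the late step the median was -0.02 in C24, with 31 values above 0, and 0.23 in Col-0, with 57 values above 0. The median level was 7.93 at 8-9 days, 10.51 at 10-11 days and 10.41 at 12-13 days in C24, and 7.14, 10.02 and 10.31 at these stages in Col-0.

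Whether these transcripts were absent before the step, as the name switched on would mean, cannot be settled without a detection measure. Only 4 of the 70 had a group mean under 4.41, the lowest 25th percentile of an array, and 66 lay at or above it in every group. The 4 were AT4G38080, AT1G75770, 250500_at and 262339_at, singled out after their values were seen, and each of them lay under that level at 8-9 days only. At the other end, 10 transcripts had a plateau mean above 13, near the top of the scale; 8 C24 means at 10-11 days and 9 at 12-13 days lay there, against 4 and 9 Col-0 means. How far the top of the scale takes part in their flat late step was not tested.

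**Figure D1:**
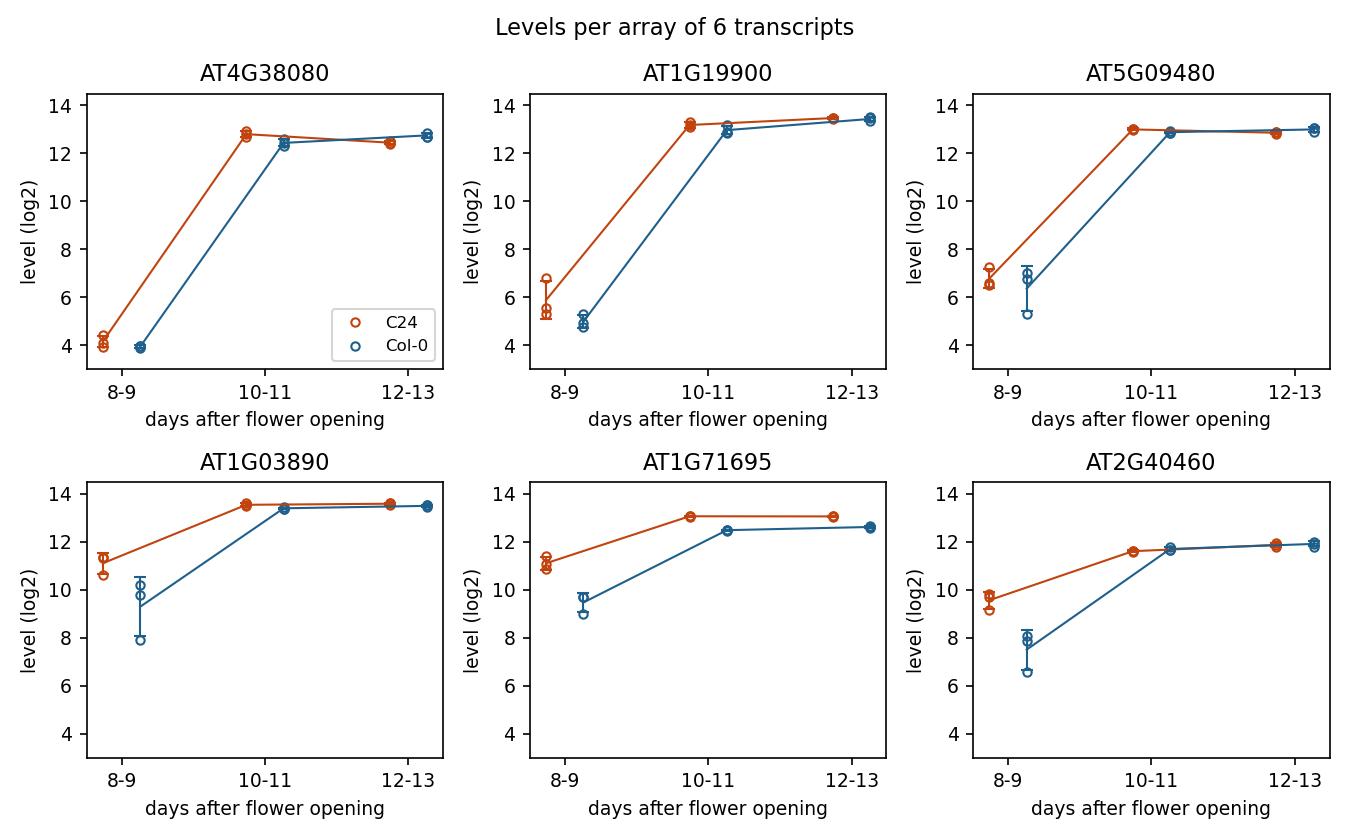
Log2 level of 6 of the transcripts in each array against days after flower opening. Points are arrays, bars are the mean ± SD of 3 arrays, and lines join the means of C24 (orange) and Col-0 (blue). AT4G38080 starts near 4 and AT2G40460 above 6, and all 6 reach a plateau above 11.

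At 8-9 days, before the plateau, the transcripts tended to stand higher in C24. Of the 70, 36 were higher in C24 by limma (51.4%) and 4 were lower (5.71%), while among all 19755 probe sets 10.3% were higher and 9.22% lower. The median difference, C24 minus Col-0, was 0.44 on the log2 scale, against -0.02 over all probe sets. All 3 C24 arrays lay above all 3 Col-0 arrays for 32 transcripts and below them for 6, where the shares over all probe sets are 16.7% and 18.8%. Among named genes the largest differences were those of AT1G05450, AT2G40460 and AT1G03890, and the named genes that were lower were AT4G24130, AT3G22240 and AT3G23570.

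Single arrays moved this count. Replicate 2 of Col-0 at 8-9 days was the lowest of its group for 54 of the 70 transcripts, and its mean level over them was 6.96, against 7.30 and 7.34 for replicates 1 and 3. Replicate 3 of C24 at 8-9 days was the lowest of its group for 54 and replicate 2 the highest for 49, with means of 7.77, 7.91 and 7.52 for replicates 1, 2 and 3. Without Col-0 replicate 2, 27 transcripts were higher in C24 and 7 lower. Without C24 replicate 3, 41 were higher. With both replicate 2 arrays left out, a setting added after seeing the data, 25 were higher and 7 lower.

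**Figure D2:**
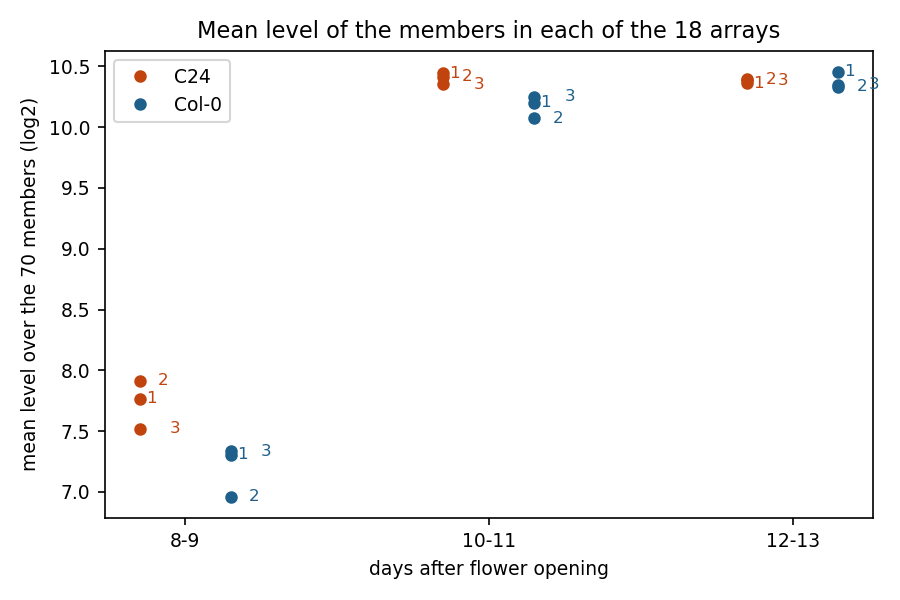
Mean log2 level over the 70 transcripts in each of the 18 arrays, by stage, with the replicate number beside each point. At 8-9 days the C24 arrays (orange) lie between 7.52 and 7.91, all above the Col-0 arrays (blue), which lie between 6.96 and 7.34.

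Other measures moved with the accessions at this stage. On the first principal component of the 19685 probe sets outside the 70, which took up 72.6% of their variance and followed the stages, C24 stood at -69.8 ± 2.6 and Col-0 at -78.4 ± 2.1 at 8-9 days (SD, n = 3). At 10-11 days C24 stood at 23.5 ± 2.9 and Col-0 at 5.4 ± 8.5, and at 12-13 days the means were 59.4 and 60.0, so that at the first and second stage C24 lay nearer the late end. Of the 12 seed coat markers 4 are named in the annotation, and their mean level lay between 9.75 and 10.21 in the C24 arrays and between 10.75 and 10.93 in the Col-0 arrays at 8-9 days. Of these 4, BAN, DFR and AT3G50990 were lower in C24 (by limma, -0.75, -0.85 and -1.73), and the subtilase gene ARA12 differed by -0.27 (adjusted p = 0.128). All 4 fell in the early step in both accessions by limma, so their level is no measure of the seed coat share alone. At 12-13 days BAN was higher in C24 (0.95, adjusted p = 0.000255 by limma). The endosperm markers AGL62 and IKU2 had means under 4.41 in every group, the valve margin gene ALC averaged 6.29 in C24 and 6.26 in Col-0 at 8-9 days, and no embryo marker is listed in the annotation. Over 4 pairs of actin and GAPDH control probe sets, the 3′ minus 5′ difference ranged from 0.27 to 2.02 in C24 and from 0.15 to 1.89 in Col-0 at 8-9 days. The part of the stage position, of the seed coat share and of RNA integrity in the accession differences was not tested.

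On the plateau the accessions lay closer by the median difference. At 10-11 days 16 transcripts were higher in C24 (22.9%, against 9.61% of all probe sets) and 3 were lower (4.29%, against 9.54%), with a median difference of 0.17. All C24 arrays lay above all Col-0 arrays for 36 transcripts and below them for 5 (18.1% and 16.6% of all probe sets). The counts by limma depend on a spread shared by all 6 groups. The median SD of the transcripts was 0.25 in C24 and 0.19 in Col-0 at 8-9 days, and 0.09 and 0.10 at 10-11 days. With only the compared groups fitted, 28 were higher in C24 at 8-9 days and 22 at 10-11 days. At 12-13 days 9 were higher (12.9%, against 11.3% of all probe sets), a share near that background, and 13 were lower (18.6%, against 11.7%), with a median difference of -0.01. There the C24 arrays lay above for 19 and below for 22 (17.3% and 17.8% of all probe sets). The count of 13 was 5 without replicate 1 of Col-0, 8 without its replicate 3, 6 without replicate 1 of C24 and 7 without its replicate 3. The rule limits the late step in both accessions, so a transcript's differences at 10-11 and 12-13 days could be at most 1 apart. Of the 36 transcripts higher in C24 at 8-9 days, 14 were also higher at 10-11 days and 8 at 12-13 days. Differences past the threshold with opposite signs occurred in 2 unlisted transcripts, 263825_at (0.74 at 8-9 days and -0.33 at 12-13 days) and 251944_at (1.58 and -0.55). In all, 18 of the 70 did not pass at any stage. For these counts over several stages the shares of all probe sets were not counted, so nothing is read from them.

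**Figure D3:**
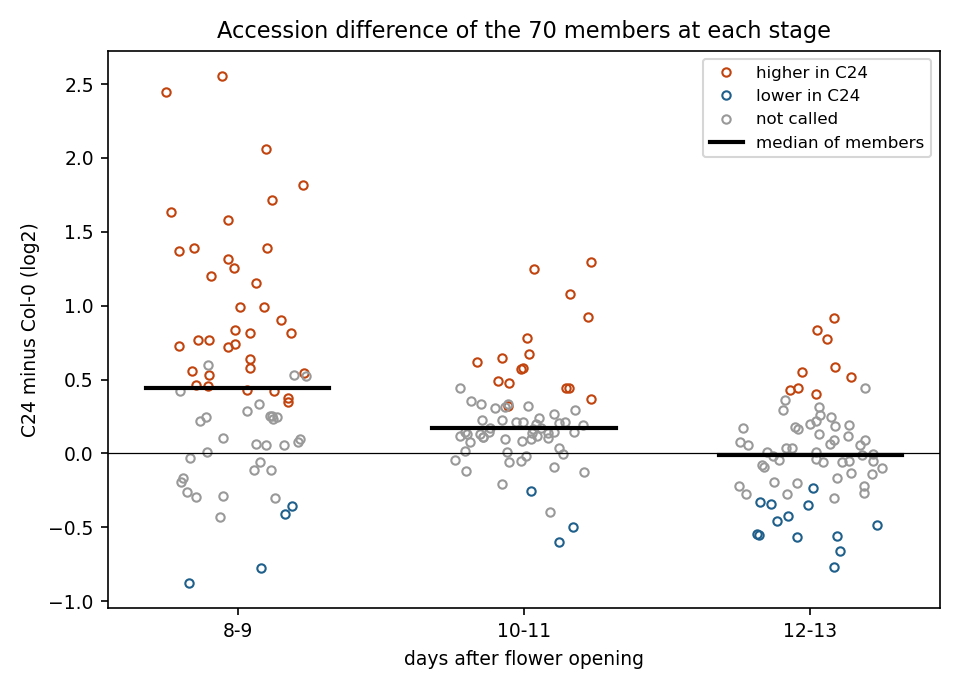
C24 minus Col-0 difference (log2) of each of the 70 transcripts at 8-9, 10-11 and 12-13 days, with the median as a black bar. Orange points are higher and blue points lower in C24 by limma (36 and 4, then 16 and 3, then 9 and 13), and grey points did not pass. The medians are 0.44, 0.17 and -0.01.

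By limma the early step was larger in C24 for 3 of the 70 (4.29%, against 3.88% of all probe sets) and smaller in C24 for 13 (18.6%, against 4.24%), with a median difference of -0.16. The rule used the steps of both accessions, so nothing is read from these shares. All 13 transcripts with a smaller step in C24 were among the 36 that stood higher in C24 at 8-9 days, and the 2 contrasts share the arrays of that stage. The rule asks for at least 1.5 in each accession, so it limits how small the smaller step can be but does not set which accession has it. The 3 with a larger step in C24 were AT4G24130, AT3G22240 and the unlisted 247965_at, each of which stood lower in C24 at 8-9 days.

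**Figure D4:**
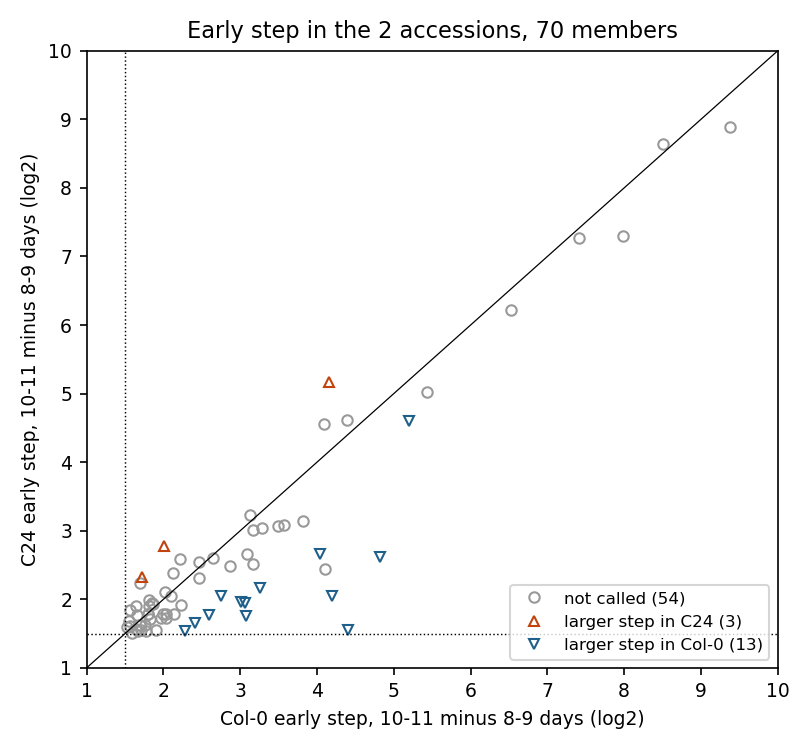
Early step (10-11 minus 8-9 days, log2) in C24 against that in Col-0 for the 70 transcripts. The solid line marks equal steps and the dotted lines the minimum of 1.5. The 13 transcripts with a smaller step in C24 by limma (blue triangles) lie under the line and the 3 with a larger one (orange triangles) above it.

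The 3 largest steps of named genes belonged to genes of wall proteins and wall polymers. AT4G38080 encodes a hydroxyproline-rich glycoprotein family protein, a class of structural wall proteins. At 8-9 days AT4G38080 stood at 3.95, 4.43 and 4.11 in the C24 arrays and 3.97, 3.88 and 3.97 in the Col-0 arrays. Its levels at 10-11 days were 12.81, 12.94 and 12.67 in the C24 arrays and 12.42, 12.31 and 12.60 in the Col-0 arrays. Its levels at 12-13 days were 12.50, 12.40 and 12.44 in the C24 arrays and 12.87, 12.70 and 12.70 in the Col-0 arrays. The steps were 8.64 in C24 and 8.50 in Col-0, and at 10-11 days it was higher in C24 (0.36 ± 0.11, adjusted p = 0.0245), all 3 C24 arrays lying above Col-0. That call was lost without either of Col-0 replicates 1 and 2 or C24 replicates 1 and 2 (adjusted p from 0.0585 to 0.125).

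AT1G19900 encodes RUBY, a galactose oxidase that cross-links pectin in seed coat mucilage. RUBY stood at 5.56, 6.80 and 5.31 in the C24 arrays and 4.91, 4.75 and 5.30 in the Col-0 arrays at 8-9 days. RUBY had 13.18, 13.30 and 13.08 in C24 and 12.91, 12.84 and 13.17 in Col-0 at 10-11 days, and 13.45, 13.49 and 13.50 in C24 and 13.53, 13.33 and 13.46 in Col-0 at 12-13 days. The steps of RUBY were 7.30 in C24 and 7.98 in Col-0. RUBY was higher in C24 at 8-9 days (0.90 ± 0.25, adjusted p = 0.0143), where C24 replicate 2 stood apart at 6.80, and the difference was 0.45 without that array. The call was lost without Col-0 replicate 1 (adjusted p = 0.0504) or replicate 2 (adjusted p = 0.0706), and with both replicate 2 arrays left out the difference was 0.33 (adjusted p = 0.153). With all arrays kept, it was also lost when only the compared groups were fitted (adjusted p = 0.0972 by limma).

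AT5G09480 and AT5G49280 are further hydroxyproline-rich glycoprotein family genes. At 8-9 days AT5G09480 stood at 6.53, 7.25 and 6.58 in the C24 arrays and 6.78, 5.29 and 7.03 in the Col-0 arrays. Its levels at 10-11 days were 13.03, 13.02 and 12.96 in the C24 arrays and 12.86, 12.86 and 12.95 in the Col-0 arrays. Its levels at 12-13 days were 12.82, 12.88 and 12.88 in the C24 arrays and 13.07, 12.89 and 13.05 in the Col-0 arrays. Col-0 replicate 2 lay far under the other 5 arrays at 8-9 days, and no stage passed between the accessions (adjusted p from 0.351 to 0.848). All C24 arrays lay above all Col-0 arrays at 10-11 days and below them at 12-13 days. AT5G49280 had smaller steps, 1.78 in C24 and 1.79 in Col-0. At 10-11 days AT5G49280 stood at 10.45, 10.61 and 10.36 in the C24 arrays and 10.16, 9.90 and 10.03 in the Col-0 arrays and was higher in C24 (0.44 ± 0.14, adjusted p = 0.0279). This call was lost without Col-0 replicates 2 or 3 or C24 replicates 1 or 2 (adjusted p from 0.0581 to 0.122). AT4G16140, a proline-rich family gene, had steps of 3.01 in C24 and 3.17 in Col-0 and did not pass at any stage, although the C24 arrays lay above the Col-0 arrays at 10-11 and 12-13 days (differences of 0.44 ± 0.21 and 0.44 ± 0.21).

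AT5G20860 is a pectin methylesterase gene, of the enzymes that strip methyl groups from wall pectin. Its levels at 8-9 days, 4.72, 4.78 and 4.82 in the C24 arrays and 5.00, 4.72 and 4.93 in the Col-0 arrays, overlapped. The plateau arrays lay between 9.09 and 9.66, the steps were 4.61 in C24 and 4.39 in Col-0, and no stage passed between the accessions (adjusted p from 0.0655 to 0.529). XTH32, an enzyme gene of the family that cuts and rejoins xyloglucan, had steps of 1.78 in C24 and 2.04 in Col-0, with means of 7.24, 9.02 and 8.85 over the stages in C24 and 7.19, 9.23 and 9.07 in Col-0. It did not pass at any stage. XTH32 and the other genes of this account that the naming rule did not take were named for their role after their values had been seen.

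The set holds a pair of class III peroxidase genes, for secreted enzymes that couple wall phenolics and proteins with hydrogen peroxide, and both were higher in C24 at 8-9 and 10-11 days. The peroxidase gene AT1G71695 (PRX12) stood at 11.08, 11.40 and 10.86 in the C24 arrays and 9.72, 9.00 and 9.72 in the Col-0 arrays at 8-9 days. This gene had 13.05, 13.08 and 13.08 in C24 and 12.51, 12.47 and 12.49 in Col-0 at 10-11 days, and 13.07, 13.05 and 13.08 in C24 and 12.64, 12.66 and 12.58 in Col-0 at 12-13 days. All 3 C24 arrays lay above all 3 Col-0 arrays at each stage. The differences were 1.64 ± 0.15, adjusted p = 2.15e-07 at 8-9 days, 0.58 ± 0.15, adjusted p = 0.00878 at 10-11 days and 0.44 ± 0.15, adjusted p = 0.038 at 12-13 days. The last of these passed by little in the model of all 6 groups, since it was lost with any array of that stage left out (adjusted p from 0.0659 to 0.103). It was kept with only the compared groups fitted. The standard error is shared by all 6 groups. The SDs of this gene were 0.01 in C24 and 0.04 in Col-0 at 12-13 days, against 0.27 and 0.41 at 8-9 days. PRX12 had a smaller early step in C24, 1.96 against 3.01 (difference -1.06 ± 0.21), a difference of -0.67 with both replicate 2 arrays of 8-9 days left out.

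AT4G25980, also of the class III peroxidases, was likewise higher in C24 by limma at 8-9 and 10-11 days. Its levels were 9.49, 9.86 and 9.42 in the C24 arrays and 8.25, 7.98 and 8.59 in the Col-0 arrays at 8-9 days and 11.12, 11.18 and 11.06 in the C24 arrays and 10.57, 10.54 and 10.53 in the Col-0 arrays at 10-11 days. The differences at these stages were past the threshold (1.32 ± 0.12, adjusted p = 3.38e-07, and 0.57 ± 0.12, adjusted p = 0.00249) but not at 12-13 days (0.26 ± 0.12, adjusted p = 0.147). At 12-13 days its C24 arrays still lay above its Col-0 arrays, with 10.94, 11.04 and 11.05 against 10.71, 10.82 and 10.72. Its step of 1.53 in C24 was smaller than the 2.28 of Col-0 (difference -0.74 ± 0.17). With both replicate 2 arrays of 8-9 days left out, this difference was -0.46 and no longer past the threshold (adjusted p = 0.0609 by limma). It is a description too, since the rule used both steps. AT1G19230 encodes RBOHE, an NADPH oxidase, of the membrane enzymes that make the superoxide from which peroxide forms. RBOHE stood at 6.11, 6.65 and 6.11 in the C24 arrays and 5.71, 5.27 and 5.59 in the Col-0 arrays at 8-9 days and was higher in C24 (0.77 ± 0.16, adjusted p = 0.00229), which with both replicate 2 arrays left out was 0.46 and no longer past the threshold (adjusted p = 0.0856). Its steps were 2.52 in C24 and 3.17 in Col-0, and the plateau arrays lay between 8.55 and 9.57 with no difference past the threshold.

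Among storage and maturation genes, AT1G03890, of the cruciferin-type seed storage proteins, reached a plateau close to the top of the scale. At 8-9 days AT1G03890 stood at 11.35, 11.38 and 10.61 in the C24 arrays and 9.79, 7.90 and 10.22 in the Col-0 arrays. Its levels at 10-11 days were 13.61, 13.50 and 13.54 in the C24 arrays and 13.44, 13.38 and 13.39 in the Col-0 arrays. Its levels at 12-13 days were 13.62, 13.55 and 13.62 in the C24 arrays and 13.52, 13.52 and 13.47 in the Col-0 arrays. At 8-9 days it was higher in C24 (1.81 ± 0.36, adjusted p = 0.00145), and all C24 arrays lay above the Col-0 arrays although Col-0 replicate 2 at 7.90 lay far from its group. The difference was 1.11 without that array and 0.98 with both replicate 2 arrays left out, and its adjusted p ranged up to 0.0381 over the alternatives. On the plateau the differences were 0.15 ± 0.36 and 0.09 ± 0.36 and did not pass. All C24 arrays lay above all Col-0 arrays at both plateau stages, with group SDs from 0.03 to 0.06. The standard error is shared by all 6 groups, and the SD of Col-0 at 8-9 days was 1.23. The steps were 2.44 in C24 and 4.10 in Col-0, a difference of -1.67 ± 0.51 that was not past the threshold (adjusted p = 0.0543 by limma). The rule used both steps, so this difference is a description.

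AT1G04560 belongs to the AWPM-19 family of membrane proteins known from wheat for their link with drying and abscisic acid. AT1G04560 stood at 10.89, 10.97 and 10.04 in the C24 arrays and 10.33, 9.40 and 10.60 in the Col-0 arrays at 8-9 days. AT1G04560 had 13.32, 13.31 and 13.25 in C24 and 13.25, 13.14 and 13.19 in Col-0 at 10-11 days, and 13.36, 13.26 and 13.35 in C24 and 13.35, 13.36 and 13.44 in Col-0 at 12-13 days. The groups overlapped at all 3 stages and no difference passed (0.52 ± 0.23 at 8-9 days, adjusted p = 0.133). AT3G18570, an oleosin family gene, had steps close to the minimum, 1.56 in C24 and 1.64 in Col-0. At 8-9 days it stood at 9.58, 9.88 and 9.52 in the C24 arrays and 9.47, 9.18 and 9.29 in the Col-0 arrays. It was higher in C24 there (0.34 ± 0.10, adjusted p = 0.0235), but not without Col-0 replicates 2 or 3 or C24 replicate 2 (adjusted p from 0.0587 to 0.15), and with both replicate 2 arrays left out the difference was 0.17. This call was also lost when only the compared groups were fitted (adjusted p = 0.0708 by limma).

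AT1G05450, of the lipid transfer protein family of small secreted lipid carriers, held the largest accession difference of a named gene at 8-9 days. AT1G05450 stood at 9.14, 9.17 and 8.51 in the C24 arrays and 6.66, 5.26 and 7.23 in the Col-0 arrays at 8-9 days. AT1G05450 had 11.58, 11.66 and 11.44 in C24 and 11.19, 11.21 and 11.22 in Col-0 at 10-11 days, and 11.96, 11.66 and 11.77 in C24 and 11.61, 11.40 and 11.72 in Col-0 at 12-13 days. C24 arrays lay above all Col-0 arrays at the first and second stage. The difference was 2.55 ± 0.31, adjusted p = 7.62e-06 at 8-9 days, 0.35 ± 0.31 at 10-11 days and 0.22 ± 0.31 at 12-13 days, the last 2 not past the threshold. The step was 2.62 in C24 and 4.82 in Col-0 (difference -2.20 ± 0.44).

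AT2G15010 encodes a thionin, a small cysteine-rich protein of a family known for defence against microbes. At 8-9 days it stood at 10.80, 10.81 and 10.30 in the C24 arrays and 9.59, 9.10 and 9.62 in the Col-0 arrays, groups that did not overlap (1.20 ± 0.13, adjusted p = 3.28e-06). From 10-11 days on its arrays lay between 12.54 and 13.10 and no difference passed. Its step was smaller in C24, 2.17 against 3.26 (difference -1.09 ± 0.19). AT3G62590 encodes PLIP3, a plastid lipase. It stood at 9.55, 9.76 and 9.46 in the C24 arrays and 8.68, 8.52 and 8.80 in the Col-0 arrays at 10-11 days. PLIP3 was higher in C24 at 8-9 days (0.83 ± 0.11, adjusted p = 2.85e-05) and at 10-11 days (0.93 ± 0.11, adjusted p = 8.72e-06), with steps of 1.91 in C24 and 1.81 in Col-0 that lay close to each other. At 12-13 days its difference of 0.31 ± 0.11 did not pass (adjusted p = 0.0537 by limma), although all C24 arrays lay above all Col-0 arrays. The GDSL-type lipase and esterase genes AT4G01130 and AT2G27360 had steps of 2.04 in C24 and 2.09 in Col-0 and of 1.85 in C24 and 1.56 in Col-0, and no stage passed for either (adjusted p from 0.163 to 0.615).

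AT2G40460 encodes NPF5.1, of the nitrate and peptide transporter family. NPF5.1 stood at 9.70, 9.84 and 9.18 in the C24 arrays and 7.88, 6.56 and 8.09 in the Col-0 arrays at 8-9 days. NPF5.1 had 11.64, 11.63 and 11.57 in C24 and 11.68, 11.65 and 11.78 in Col-0 at 10-11 days, and 11.88, 11.80 and 11.96 in C24 and 12.02, 11.81 and 11.93 in Col-0 at 12-13 days. All C24 arrays lay above all Col-0 arrays at 8-9 days, and at 10-11 days all lay below. NPF5.1 was higher in C24 at 8-9 days (2.06 ± 0.26, adjusted p = 1.09e-05), while the plateau differences of -0.09 ± 0.26 and -0.04 ± 0.26 did not pass. Its step was 2.04 in C24 and 4.20 in Col-0 (difference -2.15 ± 0.36). AT3G27200, a cupredoxin family gene (small copper proteins of electron transfer), stood at 8.85, 9.13 and 9.00 in the C24 arrays and 8.67, 8.04 and 8.35 in the Col-0 arrays at 8-9 days and was higher in C24 (0.64 ± 0.13, adjusted p = 0.00143), a call lost narrowly with both replicate 2 arrays left out (0.41, adjusted p = 0.0506).

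AT1G12010 (ACO3) encodes an ACC oxidase, the enzyme of the last reaction of ethylene synthesis. At 8-9 days AT1G12010 stood at 10.35, 10.24 and 9.88 in the C24 arrays and 10.15, 9.85 and 10.43 in the Col-0 arrays. Its levels at 10-11 days were 13.35, 13.37 and 13.42 in the C24 arrays and 13.25, 13.25 and 13.31 in the Col-0 arrays. Its levels at 12-13 days were 13.29, 13.27 and 13.31 in the C24 arrays and 13.43, 13.33 and 13.41 in the Col-0 arrays. The groups overlapped at 8-9 days and no stage passed; the steps were 3.22 in C24 and 3.12 in Col-0, with a difference of 0.10 ± 0.17. AT1G01250, an ethylene response factor gene of the AP2/ERF family of transcription factors, had steps of 2.54 in C24 and 2.46 in Col-0 and differences of 0.25 ± 0.12, 0.33 ± 0.12 and 0.05 ± 0.12 over the stages, none past the threshold (lowest adjusted p = 0.0524).

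A set of 8 transcripts was higher in C24 at all 3 stages, among them PRX12 and the unlisted 258047_at and 258646_at. The share of all probe sets that were higher at all 3 stages was not counted, so the number 8 is not read as a trait of the set. AT1G12845 stood at 8.27, 8.12 and 7.55 in the C24 arrays and 6.48, 5.94 and 6.38 in the Col-0 arrays at 8-9 days. AT1G12845 had 11.12, 11.14 and 10.88 in C24 and 9.84, 9.57 and 9.85 in Col-0 at 10-11 days, and 11.01, 11.18 and 11.05 in C24 and 10.10, 10.29 and 10.10 in Col-0 at 12-13 days. Its differences were 1.71 ± 0.16, adjusted p = 2.66e-07, 1.29 ± 0.16, adjusted p = 8.56e-06 and 0.92 ± 0.16, adjusted p = 0.000274 over the stages, and no C24 array overlapped a Col-0 array. AT1G53690, a gene for an RNA polymerase subunit-like protein, had differences of 1.39 ± 0.13, adjusted p = 4.37e-07, 1.25 ± 0.13, adjusted p = 1.78e-06 and 0.78 ± 0.13, adjusted p = 0.000258. Its C24 means were 8.92 ± 0.38, 10.54 ± 0.10 and 10.47 ± 0.08 over the stages, and its Col-0 means 7.53 ± 0.13, 9.29 ± 0.09 and 9.69 ± 0.07 (SD, n = 3).

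The other 3 of these 8 were AT5G10580, AT1G71970 and AT5G23850. AT5G10580 stood at 10.14, 10.31 and 9.92 in the C24 arrays and 8.96, 8.56 and 8.74 in the Col-0 arrays at 8-9 days. Its difference was larger at 8-9 days than later, with values of 1.37 ± 0.10, adjusted p = 1.9e-08, 0.67 ± 0.10, adjusted p = 9.63e-05 and 0.59 ± 0.10, adjusted p = 0.000316, and its step was smaller in C24 (2.05 against 2.74, difference -0.70 ± 0.14). AT1G71970 had differences close to each other at the 3 stages (0.56 ± 0.09, 0.49 ± 0.09 and 0.52 ± 0.09), and so did AT5G23850 (0.55 ± 0.11, 0.62 ± 0.11 and 0.43 ± 0.11); their adjusted p-values lay between 0.000149 and 0.00606. The unlisted 258646_at, with differences of 0.81 ± 0.08, 1.08 ± 0.08 and 0.84 ± 0.08, and 258047_at, with 0.99 ± 0.08, 0.65 ± 0.08 and 0.55 ± 0.08, complete the 8.

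Among the transcripts lower in C24, AT4G24130, of a plant family with a domain of unknown function, was the clearest at 8-9 days. At 8-9 days AT4G24130 stood at 8.37, 8.41 and 8.24 in the C24 arrays and 9.22, 9.10 and 9.02 in the Col-0 arrays. Its levels at 10-11 days were 11.05, 11.10 and 11.20 in the C24 arrays and 11.14, 11.05 and 11.17 in the Col-0 arrays. Its levels at 12-13 days were 10.79, 10.78 and 10.70 in the C24 arrays and 11.52, 11.11 and 11.35 in the Col-0 arrays. It was lower in C24 at 8-9 days (-0.78 ± 0.09, adjusted p = 7.34e-06) and again at 12-13 days (-0.57 ± 0.09, adjusted p = 0.000184), while at 10-11 days the groups overlapped (-0.01 ± 0.09). Its step was larger in C24, 2.78 against 2.01 (difference 0.77 ± 0.13). AT3G22240 showed the same order on a smaller scale: -0.41 ± 0.08, adjusted p = 0.00129 at 8-9 days and -0.24 ± 0.08, adjusted p = 0.0434 at 12-13 days, with steps of 2.32 in C24 and 1.72 in Col-0 (difference 0.60 ± 0.11). Its call at 12-13 days was lost without Col-0 replicates 1 or 2 or any C24 array of that stage (adjusted p from 0.0609 to 0.155). That call was also lost with only the compared groups fitted (adjusted p = 0.103 by limma).

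AT3G23570, an alpha/beta hydrolase gene, stood at 8.05, 7.99 and 7.83 in the C24 arrays and 8.40, 8.14 and 8.40 in the Col-0 arrays at 8-9 days and lay below Col-0 in all C24 arrays at each stage. The differences were -0.36 ± 0.09, adjusted p = 0.00632 at 8-9 days, -0.26 ± 0.09, adjusted p = 0.0459 at 10-11 days and -0.22 ± 0.09, adjusted p = 0.0771 at 12-13 days. The second was lost without any Col-0 array or without C24 replicates 1 or 3 (adjusted p from 0.0661 to 0.205). It was also lost with only the compared groups fitted (adjusted p = 0.0818 by limma). AT3G14560 was lower in C24 at the later stages. Its levels at 12-13 days were 9.78, 9.76 and 9.69 in the C24 arrays and 10.78, 10.38 and 10.37 in the Col-0 arrays, and its differences were -0.26 ± 0.11, adjusted p = 0.11, -0.49 ± 0.11, adjusted p = 0.00329 and -0.77 ± 0.11, adjusted p = 4.63e-05 over the stages. At 12-13 days the protein kinase gene AT5G20050 (-0.48 ± 0.10, adjusted p = 0.00219) and AT3G56230, of the BTB/POZ domain family (-0.42 ± 0.12, adjusted p = 0.0184), were lower in C24. AT3G56230 did not pass without Col-0 replicate 1 (adjusted p = 0.0745) or C24 replicate 3 (-0.27, adjusted p = 0.123). Nor did it pass with only the compared groups fitted (adjusted p = 0.064 by limma). AT5G12110, for a subunit of translation elongation factor 1, was higher in C24 there, with 9.53, 9.63 and 9.60 in the C24 arrays and 9.18, 9.31 and 9.06 in the Col-0 arrays (0.40 ± 0.10, adjusted p = 0.00895).

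The unlisted probe sets hold the extremes of the set. 250500_at, singled out after its values were seen, had the largest steps, 8.89 in C24 and 9.38 in Col-0, between a first-stage level that in Col-0 lay under 4.41 on average and a plateau above 13. 250500_at stood at 4.71, 5.76 and 4.17 in the C24 arrays and 4.21, 4.32 and 3.94 in the Col-0 arrays at 8-9 days. 250500_at had 13.83, 13.67 and 13.81 in C24 and 13.58, 13.46 and 13.55 in Col-0 at 10-11 days, and 13.55, 13.53 and 13.60 in C24 and 13.80, 13.78 and 13.70 in Col-0 at 12-13 days. At 8-9 days C24 replicate 2 stood apart at 5.76, the groups overlapped, and the difference of 0.73 ± 0.24, adjusted p = 0.0392 was lost without any Col-0 array or without C24 replicates 1 or 2 (adjusted p from 0.053 to 0.175). Without C24 replicate 2 the difference was 0.28, and with both replicate 2 arrays left out it was 0.37. With only the compared groups fitted, the call was lost too (adjusted p = 0.168 by limma). 258445_at had the largest accession difference in the step. 258445_at stood at 8.03, 8.24 and 7.64 in the C24 arrays and 5.50, 4.93 and 6.13 in the Col-0 arrays at 8-9 days. 258445_at had 9.50, 9.36 and 9.72 in C24 and 9.92, 9.93 and 9.92 in Col-0 at 10-11 days, and 9.33, 9.17 and 9.24 in C24 and 9.63, 9.40 and 9.53 in Col-0 at 12-13 days. All C24 arrays lay above Col-0 at 8-9 days (2.45 ± 0.20, adjusted p = 6.7e-08) and below at both later stages (-0.39 ± 0.20 and -0.27 ± 0.20, not past the threshold). The steps were 1.56 in C24 and 4.40 in Col-0 (difference -2.84 ± 0.29).

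247965_at ran the other way. At 8-9 days 247965_at stood at 7.90, 8.43 and 7.50 in the C24 arrays and 8.82, 8.87 and 8.76 in the Col-0 arrays, with no overlap (-0.87 ± 0.15, adjusted p = 0.000288), and its plateau arrays lay between 12.86 and 13.30. Its step was larger in C24, 5.17 against 4.16 (difference 1.00 ± 0.21). In all, 14 of the 36 transcripts higher in C24 at 8-9 days are unlisted. The remaining named genes, AT1G56320, AT5G62580, AT2G39710 (an aspartyl protease gene), AT1G75770, AT4G31830, AT3G50230 (a receptor-like kinase gene), AT4G34180 (CYCLASE1) and AT1G10750, had early steps of 1.51 to 5.03 in C24 and 1.59 to 5.43 in Col-0. AT1G56320 (0.72 ± 0.12, adjusted p = 0.000263), AT5G62580 (0.76 ± 0.10, adjusted p = 1.76e-05) and AT4G34180 (0.46 ± 0.09, adjusted p = 0.000857) were higher in C24 at 8-9 days with no overlap. So was AT1G75770 (0.42 ± 0.11, adjusted p = 0.0101 by limma), but not without Col-0 replicate 2 (adjusted p = 0.0526). AT2G39710 was higher there with overlapping groups (0.53 ± 0.17, adjusted p = 0.0383 by limma), a call lost under 7 alternatives. AT5G62580 also had a smaller step in C24 (1.65 against 2.41, difference -0.75 ± 0.14).

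Nearest above the minimum of the rule lay AT1G10750 (steps of 1.51 in C24 and 1.59 in Col-0), AT4G34180 (1.53 in C24 and 1.67 in Col-0) and AT5G23850 (1.60 in C24 and 1.53 in Col-0). Nearest below it, with a flat late step in both accessions, lay 257210_at (1.49 in C24 and 1.84 in Col-0), AT5G50970 (1.48 and 1.89) and AT3G03770 (1.46 and 1.80).

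In all, 344 probe sets had an early step of 1.5 or more in both accessions. The 70 are those with a flat late step. The other 274 went on by more than 0.5 in both (145), came down by more than 0.5 in both (14) or did not move alike (115). At 8-9 days 51.4% of the 70 and 28.1% of the 274 were higher in C24, and 5.71% and 8.03% were lower. At 10-11 days 22.9% of the 70 and 47.8% of the 274 were higher, and 4.29% and 6.57% were lower. At 12-13 days 12.9% and 12.4% were higher, and 18.6% and 28.8% were lower. Membership in either set depends on the late step, which uses the arrays of 10-11 and 12-13 days, and the difference between the sets was not tested.

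**Figure D5:**
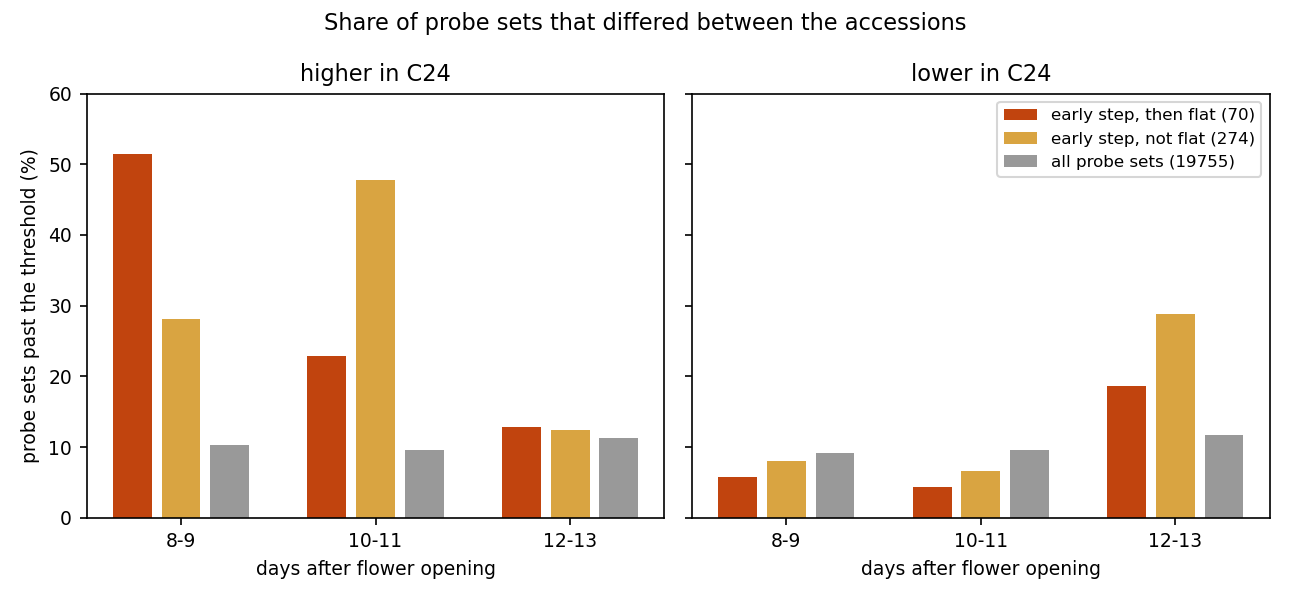
Share of probe sets (%) higher (left) and lower (right) in C24 by limma at each stage, for the 70 transcripts, the 274 with an equal minimum step but no flat late step, and all 19755. At 8-9 days the bars on the left are 51.4%, 28.1% and 10.3%, and at 10-11 days 22.9%, 47.8% and 9.61%.

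Gene lists for seed filling and the seed coat give the surroundings of these transcripts. Only genes named in the annotation could be found for them, and 7931 of the 19755 probe sets are unlisted there. Of 13 seed storage protein genes 5 were found, and the 4 beside AT1G03890 all rose in the early step in both accessions, by 0.50 to 1.28 in C24 and 0.63 to 1.65 in Col-0. Their late steps ran from 0.04 to 0.24 in C24 and reached at most 0.30 in Col-0 (lowest adjusted p = 0.0599). The largest of these early steps, of PAP85, was 1.28 ± 0.15 in C24 and 1.65 ± 0.15 in Col-0. Of 22 late embryogenesis abundant and desiccation genes beside AT1G04560, 15 rose early in C24 and 14 in Col-0, and 18 and 17 rose again in the late step, where 11.7% of all probe sets rose in C24 and 17.6% in Col-0. AT3G15670, of the late embryogenesis abundant proteins that protect drying cells, had early steps of 4.43 ± 0.24 in C24 and 4.56 ± 0.24 in Col-0 and late steps of 2.31 ± 0.24 and 2.59 ± 0.24.

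Of 3 oil body genes beside AT3G18570, 1 rose early in C24 and 2 in Col-0, and AT2G25890, an oleosin family gene, rose by 1.73 ± 0.12 in C24 and 1.68 ± 0.12 in Col-0 and again by 0.89 ± 0.12 and 1.34 ± 0.12 in the late step. Of 6 mucilage genes beside RUBY, 6 fell early in C24 and 5 in Col-0, where 26.0% and 23.3% of all probe sets fell. AT3G50990, the peroxidase PRX36 of the seed coat epidermis, fell by 1.71 in C24 and fell by 2.91 in Col-0. Both flavonoid genes found, BAN and DFR of seed coat tannin synthesis, fell early in both accessions. BAN fell by 2.42 in C24 and fell by 3.04 in Col-0. Of 5 fatty acid synthesis genes, 1 rose and 3 fell early in C24, and 2 rose and 3 fell in Col-0. Of 11 sugar transport genes, 4 rose and 2 fell early in C24, and 3 rose and 3 fell in Col-0; SAG29, a sucrose exporter, rose by 0.68 ± 0.08 in C24 and 1.03 ± 0.08 in Col-0. Of the maturation transcription factors, EEL rose early in both (0.99 ± 0.11 in C24 and 1.15 ± 0.11 in Col-0), while BZIP53 passed in Col-0 and not in C24 (0.13 ± 0.09, adjusted p = 0.236, in C24 and 0.51 ± 0.09 in Col-0). Of 2 suberin and wax genes, FACT rose early in C24 (2.61 ± 0.45) and did not pass in Col-0 (1.08 ± 0.45, adjusted p = 0.0636), and WSD1 fell in both. The accession difference in the step did not pass for BZIP53 (-0.39 ± 0.12, adjusted p = 0.0648 by limma) or FACT (1.53 ± 0.64, adjusted p = 0.165 by limma). The endosperm markers did not pass, and no abscisic acid gene of the list is named in the annotation.

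The number after AT in a locus name is the chromosome. Of the 42 transcripts with a gene, 14 lie on chromosome 1 (33.3%, against 26.5% of all probe sets with a single gene), 5 on chromosome 2 (11.9%, against 15.4%), 8 on chromosome 3 (19.0%, against 20.5%), 7 on chromosome 4 (16.7%, against 13.9%) and 8 on chromosome 5 (19.0%, against 23.6%). No 2 of them are neighbours: the nearest pair in the order of genes, AT1G71695 and AT1G71970, is 31 genes apart. The annotation names no further probe set for any of the 42 genes, and the unlisted ones were not searched.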

How the data were processed

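Transcript levels came from a deposited series table of log2 values per probe set for 18 ATH1 arrays, marked in the labels as a re-analysis. Per the labels, the authors kept probes that are identical in both genomes and match TAIR10 gene models, with at least 3 probes per probe set. The submitters' processing notes name TAIR10 too. How background correction, normalization and probe summary were done, and with which software, is not given in the sources used here. Its values entered the fit unchanged and unfiltered. It gives no detection measure, so whether a level near the 25th percentile exceeds background is unknown, and differences against such a level may come out too small. For arrays, their number limits the precision.

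After 11 control probe sets were left out of 19766, 19755 were fitted in a group-means model of all 18 arrays with limma 3.58.1 (lmFit and eBayes, R 4.3.3), with 12 residual and 5.8 prior degrees of freedom. It gave C24 minus Col-0 for every stage, the accession difference in the early step (a description for the 70, since the rule used both steps), and, for genes outside the 70, the stage steps. For a single gene, an exact permutation test of 3 against 3 arrays has 0.1 as its smallest p. The model was tested on simulated data.

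The platform annotation names a single gene for 11763 probe sets. A RefSeq table of TAIR10.1 held all 42 genes of the 70 and was used for names and gene order only, so no coordinates are given. The members, the rule and the 11 gene lists were chosen with earlier results of these data known. Named were members with the 12 largest steps, the 6 highest levels at 12-13 days, the largest accession differences past the threshold (6 at all 3 stages, 3 each way at a stage, 4 each way for the early step), those next to the minimum and those in a list. Grouping by role was done after the members were known and was not tested. The annotation holds no gene descriptions, so the part of the naming rule on gene families was not applied. Promoter motifs and protein features were not analysed here. Alternatives were a second quantile normalization, median centring, a trended and robust prior variance, a fit of only the compared groups, leaving out the dimmest 30% of probe sets, a replicate block, group medians for the rule, and leaving out each array. The deviations of same-numbered arrays of different groups correlated weakly (from -0.175 to 0.209, with 3 of 21 over 0.1). Such weak correlations cannot settle whether the numbers pair the samples, so the replicate block was kept as an alternative only. No source used here ties an array to a plant, experiment or hybridisation batch, so batches were not tested.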

Additional observations from a re-analysis of the deposited data

Results flagged for a closer look

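The early step differed between the accessions, by limma's test of the difference itself, in 11 of the transcripts named above. The step was smaller in C24 for 8 of them: the unlisted 258445_at (-2.84), the lipid transfer protein family gene AT1G05450 (-2.20), the transporter gene AT2G40460 (-2.15), the thionin gene AT2G15010 (-1.09), the peroxidase gene AT1G71695 (-1.06), AT5G62580 (-0.75), the peroxidase gene AT4G25980 (-0.74) and AT5G10580 (-0.70), on the log2 scale. All 8 were higher in C24 at 8-9 days. The step difference of AT4G25980 no longer passed with both replicate 2 arrays of 8-9 days left out (-0.46, adjusted p = 0.0609 by limma). The step was larger in C24 for the unlisted 247965_at (1.00), AT4G24130 (0.77) and AT3G22240 (0.60), which were lower in C24 at 8-9 days. Each of these differences rests partly on the arrays of 8-9 days, where replicate 2 of Col-0 was the lowest of its group for 54 of the 70 transcripts. The rule chose these transcripts by the steps of both accessions, so the differences between the steps are a description, and the test is no independent support for them.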

How the results depend on the processing

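With 1 array left out at a time, 63 to 81 transcripts met the rule, and 64 to 75 did under the other alternatives, against 70. Among 873 alternative values of the 64 named accession differences none changed its sign. Where only the prior variance, the fitted groups, the replicate block or the dimmest probe sets were changed, the difference itself stayed the same. No sign change was possible in those alternatives. The 64 had all passed the threshold in these data, and the early step differences among them come from steps that the rule used. The unchanged signs are therefore no independent support for these differences. The call was kept under every alternative for 48 of the 64, and 72 values no longer passed the threshold.

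With 1 array left out, the transcripts higher in C24 numbered 27 to 41 at 8-9 days and 11 to 16 at 10-11 days. Those lower in C24 numbered 4 to 7 at 8-9 days and 5 to 13 at 12-13 days. Those with a smaller early step in C24 numbered 12 to 17. With both replicate 2 arrays of 8-9 days left out, an alternative chosen after seeing the data, 7 transcripts were lower in C24 at 8-9 days, against 4. Under that alternative 2231 probe sets of the whole table differed at 8-9 days, against 3847, and 975 in the early step, against 1604. Fewer arrays enter these fits, and any other cause was not tested. Without replicate 1 of Col-0 at 10-11 days, 546 probe sets of the whole table had a smaller early step in C24, against 838. The other totals stayed within 1.5 times the reported ones, but 24 of the alternative counts for the gene lists, each of a few genes, did not, and 552 did.

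With the replicate block, 36 transcripts were higher and 5 lower in C24 at 8-9 days, 16 and 2 at 10-11 days, and 8 and 13 at 12-13 days, and the early step was larger in C24 for 3 and smaller for 13. The block gave 3780, 3767 and 4520 probe sets at the 3 stages and 1578 in the early step. AT1G71695 at 12-13 days (adjusted p = 0.051 by limma) and AT3G23570 at 10-11 days (adjusted p = 0.0567 by limma) did not pass with it. The table has no measure of signal over background, so it sets no limit of detection.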
